A study of Homo sapiens with 12 samples.

Results

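RAB proteins are small GTPases that mark the membranes of the cell. Each one sits on a particular organelle or vesicle, is switched on by an exchange factor (GEF) that loads GTP, is switched off by a GTPase-activating protein (GAP), and while active recruits effectors such as motors and tethers that bud, move, dock or fuse that membrane. In prostate epithelium, a secretory tissue, they serve the route out of the endoplasmic reticulum through the Golgi to the cell surface and the routes back through endosomes to lysosomes.

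The RAB genes were taken as all probes whose symbol was RAB, a number and an optional letter, without RAB3B and without genes named as RAB interactors, GAPs or GEFs. The probe annotation named 50 such genes on 65 probes. A probe was used when its detection p-value, which compares it with negative control beads, was under 0.05 on at least 3 of the 12 arrays, and 48 RAB genes on 59 probes passed, of 11933 genes on the 22539 probes that passed in all. RAB3D and RAB34 did not pass. Of the 48 genes, 40 were detected on all 12 arrays. The others were RAB3A (11 arrays), RAB9B (9), RAB14 and RAB31 (7 each), RAB27A, RAB36 and RAB37 (6 each) and RAB11B (4).

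The arrays, Illumina BeadChips, measured RNA from a pair of human prostate cancer lines derived from LNCaP, an androgen receptor-positive line. RNA was collected 72 h after transfection with 25 nM siRNA, and the study asks what depends on GATA2, a transcription factor that works with the androgen receptor in these cells. There were 4 groups of 3 arrays: siGATA2 in LNCaP-abl (Abl), siNT in Abl, siGATA2 in enzalutamide-resistant LNCaP (MDVR) and siNT in MDVR, where siGATA2 is a single named Stealth siRNA and siNT a non-targeting control. MDVR cells came from parental LNCaP cells, were selected for more than a year with enzalutamide, which blocks the androgen receptor, at 25 microM and were then maintained in 10 microM, in 10% fetal bovine serum. Abl cells grew without the drug in 10% charcoal-stripped serum, which is poor in steroid hormones. Line, serum and drug therefore differ together and cannot be told apart, and the labels do not say whether the arrays of a group came from separate cultures, so p-values measure the spread between these arrays, which may be technical.

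All levels below are normalized log2 intensities, and a change is a difference of group means on that scale. A gene was called when the Benjamini-Hochberg adjusted p of the limma fit over all 11933 genes was under 0.05. Since each probe has its own brightness, levels are compared between groups for 1 probe and never between probes.

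The targeted gene itself fell modestly. GATA2 (probe ILMN_2102670) read 8.43, 8.58 and 8.48 under siGATA2, against 9.12, 8.80 and 8.82 under siNT in Abl, a change of -0.41 (SE 0.12, adjusted p = 0.0101) that lost its call without Abl siNT replicate 1 (adjusted p = 0.058). In MDVR it read 9.09, 8.80 and 8.86 under siGATA2, against 8.88, 9.16 and 9.26 under siNT, and the -0.18 change (95% interval -0.42 to 0.06, adjusted p = 0.297) was not called. With 1 siRNA against GATA2, changes that follow the loss of GATA2 and other effects of that siRNA cannot be told apart in any comparison of siGATA2 with siNT. Arrays of 1 group correlated at 0.989 to 0.992, and 40.4% to 43.3% of probes were detected per array. All 9 luminal prostate markers on the list had a probe, and KRT8, KRT18, HOXB13, FOLH1, TMPRSS2 and FOXA1 were detected on all 12 arrays, SLC45A3 on 8, and KLK2 and KLK3 on the 3 MDVR siNT arrays alone. The summed linear level of that list was 18190 to 19180 under siGATA2 and 15330 to 16050 under siNT in Abl. In MDVR it was 14540 to 15060 under siGATA2 and 12540 to 13570 under siNT. The probes with the highest signal, FOXA1 and FOLH1, weigh most in this sum, so it does not show a rise of the whole list. FOLH1 was called higher in both lines (0.50 in Abl, 0.62 in MDVR), and FOXA1 (0.24) and SLC45A3 (1.00) in Abl alone. KRT8, KRT18, HOXB13 and TMPRSS2 were called in neither line. KLK2 and KLK3 went the other way and were called lower in MDVR. They passed the filter through the MDVR siNT arrays alone, so no size is given. Of the markers of other cell types, the single endothelial marker with a probe, VWF, rose with siGATA2 (summed level 424.1 to 492.3 against 27.68 to 35.34 in Abl, and 80.57 to 104.7 against 24.8 to 37.96 in MDVR). The 2 neuroendocrine markers with a probe, CHGA and ENO2, summed to 854.7 to 881.9 under siGATA2 and 894.8 to 1069 under siNT in Abl, and to 337.1 to 477 under siGATA2 and 572.3 to 733.5 under siNT in MDVR. COL1A2, for fibroblasts, was detected on no array, CD14, for leukocytes, on 2, and the other markers of these types and of basal epithelium were not analysed here. The part of these shifts in the RAB changes was not tested. In bulk RNA, fewer cells that express a gene and less of its RNA per cell cannot be told apart.

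The RAB genes called in the same direction in both lines were RAB18, RAB1A, RAB43 and RAB40B, which rose with siGATA2, and RAB2B, which fell. Their promoters are shown because these genes were called in the same direction in both lines. RefSeq entries (GRCh38.p14) were at hand for 38 of the 48 RAB genes and for 4 of these 5, RAB1A being named only. Each sequence is the 250 bases before an annotated start, 5′ to 3′ on the gene's strand. Capitals mark GATA, the core letters that GATA factors bind, with its other strand TATC, and CCAAT, a common promoter element, with its other strand ATTGG. The windows are chr10:27504054-27504303 (+) for RAB18, chr3:129122151-129122400 (-) for RAB43, chr17:82698699-82698948 (-) for RAB40B and chr14:21476960-21477209 (-) for RAB2B.
RAB18: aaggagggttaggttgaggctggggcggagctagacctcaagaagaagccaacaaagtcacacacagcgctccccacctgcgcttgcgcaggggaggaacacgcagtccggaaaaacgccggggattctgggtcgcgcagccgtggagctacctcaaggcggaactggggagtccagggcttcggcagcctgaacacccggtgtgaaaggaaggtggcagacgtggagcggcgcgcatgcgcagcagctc
RAB43: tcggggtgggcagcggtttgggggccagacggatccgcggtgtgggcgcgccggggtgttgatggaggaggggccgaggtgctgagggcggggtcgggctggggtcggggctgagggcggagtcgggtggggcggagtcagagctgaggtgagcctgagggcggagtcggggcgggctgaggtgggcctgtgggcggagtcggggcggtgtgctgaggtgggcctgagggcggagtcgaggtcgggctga
RAB40B: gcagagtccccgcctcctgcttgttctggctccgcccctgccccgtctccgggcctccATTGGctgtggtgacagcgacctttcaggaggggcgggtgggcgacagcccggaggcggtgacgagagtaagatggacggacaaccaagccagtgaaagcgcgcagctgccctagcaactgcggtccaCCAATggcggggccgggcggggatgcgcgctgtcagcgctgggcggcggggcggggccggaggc
RAB2B: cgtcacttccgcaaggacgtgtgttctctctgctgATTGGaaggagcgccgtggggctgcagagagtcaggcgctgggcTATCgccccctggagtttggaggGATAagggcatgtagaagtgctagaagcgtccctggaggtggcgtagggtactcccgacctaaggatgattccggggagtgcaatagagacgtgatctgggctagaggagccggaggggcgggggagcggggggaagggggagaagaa

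The RAB18 window held neither motif. The RAB43 window shown, like the other RAB43 windows in RefSeq, held neither, the RAB40B window held 2 CCAAT and 0 GATA, and the RAB2B window held 2 GATA and 1 CCAAT. RAB2B has a second annotated window, which is not shown. Over all 35116 windows of the same length, 45.6% held GATA on either strand, and 18 of the 56 RAB windows did (32.1%). CCAAT was in 32% of all windows and in 17 of the 56. A match is a run of letters and not a binding site, and a window without one says nothing about the factor.

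In Abl, siGATA2 changed 14 of the 48 RAB genes, 8 higher and 6 lower. That share of 29.2% stood beside 31.2% of all genes called in the same comparison (15.1% higher, 16.1% lower). Its median change was 0.04, beside 0.0033 for all genes. RAB18 was set apart by size. Alone among the RAB genes it passed both the call and a 2-fold change, which 3.57% of all genes did, and its rise ranked 10 among the 11933 genes.

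RAB18, a RAB of the endoplasmic reticulum and of lipid droplets, read 8.79, 8.80 and 8.59 under siGATA2, against 6.57, 6.36 and 6.58 under siNT in Abl. Every siGATA2 array was far above every siNT array. The change was 2.22 (SE 0.11, 95% interval 1.99 to 2.46, 4.67-fold, adjusted p = 4.17e-11). RAB18 had 1 kept probe, ILMN_1691143, detected on every array. The size depends on how background is handled: it was 1.41 without that correction and 1.10 on the authors' processed values, and called in each case.

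The other early secretory and Golgi RABs moved less and in both directions. With RAB18 counted, 4 of the 10 measured in this class were called higher and 2 lower, where 31.2% of all genes were called. Differences between the role classes were not tested. RAB1A, which with RAB1B drives transport between the endoplasmic reticulum and the Golgi, read 9.18, 9.19 and 9.12 under siGATA2, against 8.46, 8.65 and 8.37 under siNT. The groups were separate and RAB1A rose by 0.67 (SE 0.13, adjusted p = 0.000437). RAB1B read 8.13, 7.88 and 8.18 under siGATA2, against 7.69, 7.54 and 7.66 under siNT, also separate, and rose by 0.43 (SE 0.12, adjusted p = 0.0087), or by 0.23 on the authors' processed values. The probe sequences were not used, so signal from 1 copy of this closely related pair on the probe of the other was not tested. RAB43, a Golgi RAB, read 6.96, 6.71 and 6.91 under siGATA2, against 6.12, 6.55 and 6.10 under siNT. Replicate 2 of siNT lay nearest to the siGATA2 arrays, and the change was 0.60 (SE 0.15, adjusted p = 0.00541), which was 0.19 with a call on the authors' processed values.

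RAB2B, which works between the endoplasmic reticulum and the Golgi, went the other way. It read 9.97, 9.96 and 9.89 under siGATA2, against 10.54, 10.36 and 10.49 under siNT, a change of -0.53 (SE 0.07, adjusted p = 1.7e-05). The close relative RAB2A was not called by its brightest probe (0.18, adjusted p = 0.128). RAB33B, a Golgi RAB, changed by -0.31 (SE 0.09, adjusted p = 0.0128), a call that was lost without Abl siGATA2 replicate 3 (adjusted p = 0.0569). The Golgi genes RAB6A, RAB6B and RAB30 lay between -0.05 and 0.12 and were not called.

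Of the 20 endocytic, recycling and degradative RABs, 3 rose and 2 fell in Abl, beside 31.2% of all genes called. RAB4A and RAB4B, both tied to fast recycling from early endosomes, were called in opposite directions. RAB4A read 8.26, 8.35 and 8.40 under siGATA2, against 8.70, 8.94 and 8.83 under siNT, a fall of 0.49 (SE 0.09, adjusted p = 0.000472). RAB4B read 7.84, 7.69 and 7.61 under siGATA2, against 7.11, 7.33 and 7.32 under siNT, a rise of 0.46 (SE 0.13, adjusted p = 0.00961). Neither pair of groups overlapped, and on the authors' processed values RAB4A changed by -0.33 and RAB4B by 0.22. The RAB4B call was just lost without Abl siGATA2 replicate 2 (adjusted p = 0.0506), and its second probe changed by 0.31 without a call (adjusted p = 0.342 over all probes).

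The remaining calls of this class were small. RAB7A, which brings late endosomes to lysosomes, read 11.96, 11.85 and 11.84 under siGATA2, against 12.08, 12.11 and 12.18 under siNT, a change of -0.24 (SE 0.07, adjusted p = 0.0125). Without Abl siGATA2 replicate 4 or Abl siNT replicate 3 its adjusted p was 0.0554 or 0.0537. RAB21, an early endosome RAB tied to integrin traffic, read 9.69, 9.80 and 9.88 under siGATA2, against 9.41, 9.66 and 9.58 under siNT, a change of 0.24 (SE 0.09, adjusted p = 0.0435). That call was lost without Abl siGATA2 replicate 3 or 4, Abl siNT replicate 1 or 3, or MDVR siNT replicate 4, with adjusted p = 0.0507 to 0.178. RAB24, tied to autophagy, changed by 0.22 (SE 0.08, adjusted p = 0.0441), and its groups overlapped. It was lost without any 1 of 8 arrays, namely each Abl siGATA2 array, Abl siNT replicates 1 and 2 and each MDVR siNT array (adjusted p = 0.0503 to 0.179), and the mean of its 5 probes changed by 0.07 (adjusted p = 0.619). RAB5A, RAB5B and RAB5C of the early endosome and RAB11A of the recycling endosome were not called, with changes between -0.03 and 0.19. RAB11B, also of the recycling endosome, was detected on no Abl array, so no change is given.

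Among the 12 RABs of exocytosis, regulated secretion and lysosome-related organelles, 1 was called in Abl, beside 31.2% of all genes. RAB8A, which carries cargo to the plasma membrane and the cilium, read 9.87, 9.78 and 9.74 under siGATA2, against 10.15, 10.09 and 10.15 under siNT. All siGATA2 arrays were below all siNT arrays, and the change was -0.34 (SE 0.09, adjusted p = 0.00546). RAB27B, a RAB of secretory granules and exosome release, read 9.99, 10.00 and 10.13 under siGATA2, against 9.91, 9.86 and 9.53 under siNT. Its groups were separate, but the 0.27 difference just missed the threshold (SE 0.11, adjusted p = 0.0557), and it was 0.23 with a call on the authors' processed values (adjusted p = 0.0275). Its relative RAB27A differed by 0.39 (SE 0.19, adjusted p = 0.129) and was not called.

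The 6 RABs placed in no other class had 1 call in each direction, beside 31.2% of all genes called. RAB40B, whose SOCS box links it to ubiquitin ligases, read 9.99, 9.81 and 9.87 under siGATA2, against 9.41, 9.50 and 9.49 under siNT, a separate pair of groups with a rise of 0.43 (SE 0.08, adjusted p = 0.000235). RAB36, which has been placed on late endosomes, read 7.13, 7.29 and 7.28 under siGATA2, against 7.79, 7.49 and 7.76 under siNT, a fall of 0.45 (SE 0.15, adjusted p = 0.0283). On the authors' processed values RAB36 changed by -0.21. The RAB36 call was lost on leaving out any Abl siGATA2 array, Abl siNT replicate 1 or Abl siNT replicate 3 (adjusted p = 0.0507 to 0.103). In all, the Abl arrays of both siRNAs were separate for 17 of the 48 RAB genes, where 43.2% of all genes were.

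In MDVR, siGATA2 changed 9 of the 48 RAB genes, 7 higher and 2 lower. That is 18.8% of them, beside 22.1% of all genes (11.5% higher, 10.6% lower). The median change of the 48 was 0.01, beside -0.0012 for all genes. RAB18 again was the single RAB gene to pass the call and a 2-fold change, where 1.74% of all genes did.

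RAB18 in MDVR read 8.75, 8.66 and 8.77 under siGATA2, against 7.41, 7.23 and 7.43 under siNT. The groups lay well apart, and the change was 1.37 (SE 0.11, 2.58-fold, adjusted p = 6.28e-08), which ranked 40 among all rises. It was 0.96 without background correction and 0.78 on the authors' processed values, and called in each case. RAB43 read 6.74, 6.76 and 6.56 under siGATA2, against 6.07, 6.17 and 6.00 under siNT, a rise of 0.61 (SE 0.15, adjusted p = 0.00728) beside its 0.60 in Abl, and on the authors' processed values the RAB43 changes were 0.18 in MDVR and 0.19 in Abl. RAB40B read 10.78, 10.80 and 10.76 under siGATA2, against 10.41, 10.57 and 10.43 under siNT, a rise of 0.31 (SE 0.08, adjusted p = 0.00622). Both genes had separate groups.

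RAB1A and RAB2B moved in MDVR as they did in Abl, with smaller and less secure changes. RAB1A read 7.83, 7.41 and 7.44 under siGATA2, against 7.36, 7.01 and 7.14 under siNT, a change of 0.39 (SE 0.13, adjusted p = 0.0315) with replicate 1 of siGATA2 the highest. Without that array, without MDVR siNT replicate 3 or without MDVR siNT replicate 4 it was 0.26, 0.31 or 0.38 (adjusted p = 0.173, 0.134 or 0.0784), and on the authors' processed values 0.18 (adjusted p = 0.0743). RAB2B read 10.17, 10.22 and 10.20 under siGATA2, against 10.41, 10.51 and 10.42 under siNT, a change of -0.25 (SE 0.07, adjusted p = 0.0174). The groups were separate, and the call was lost without MDVR siGATA2 replicate 1 (adjusted p = 0.0547) or MDVR siNT replicate 3 (adjusted p = 0.0744). The change itself was not called different between the lines for RAB1A (-0.28, 95% interval -0.66 to 0.10, adjusted p = 0.409) or for RAB2B (0.28, 95% interval 0.06 to 0.49, adjusted p = 0.122).

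Of the endocytic RABs, 2 of 20 were called in MDVR, both higher, beside 22.1% of all genes called. RAB17, which acts in apical recycling of polarised epithelial cells, read 11.76, 11.71 and 11.73 under siGATA2, against 11.32, 11.37 and 11.30 under siNT. Each group was tight, and RAB17 rose by 0.40 (SE 0.08, adjusted p = 0.000753). RAB22A, of early endosomes and recycling tubules, read 9.55, 9.75 and 9.66 under siGATA2, against 9.33, 9.32 and 9.22 under siNT, again separate, with a rise of 0.37 (SE 0.09, adjusted p = 0.00477). In Abl, RAB17 (-0.02) and RAB22A (0.02) were not called.

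RAB29, a RAB of the trans-Golgi and lysosome that recruits the kinase LRRK2, had the largest fall among the RAB genes of MDVR. It read 6.83, 6.36 and 6.55 under siGATA2, against 7.53, 7.40 and 6.91 under siNT, with wide spread in both groups and little room between replicate 1 of siGATA2 and replicate 4 of siNT. The change was -0.70 (SE 0.19, adjusted p = 0.00995), and it lost its call without MDVR siGATA2 replicate 2 (-0.59, adjusted p = 0.0562) or MDVR siNT replicate 2 (-0.58, adjusted p = 0.0616). On the authors' processed values it was -0.27. RAB6A, which directs traffic back from endosomes and within the Golgi, read 9.23, 9.20 and 9.13 under siGATA2, against 8.60, 9.06 and 8.81 under siNT, a change of 0.36 (SE 0.11, adjusted p = 0.0189). That call was lost without MDVR siGATA2 replicate 1 or 2 or MDVR siNT replicate 2 or 4 (adjusted p = 0.0512 to 0.118), and the second RAB6A probe changed by 0.14 (adjusted p = 0.523 over all probes). MDVR arrays of both siRNAs were separate for 14 of the 48 genes, where 36.3% of all genes were.

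The second RAB2A probe, ILMN_1891857, gave what its brightest probe, ILMN_1652394, did not. It changed by 0.37 (SE 0.12, adjusted p = 0.0338 over all probes) in Abl and by 0.56 (SE 0.12, adjusted p = 0.00301) in MDVR, while the brightest probe changed by 0.18 and 0.01 without a call. Whether the probes read different transcripts was not tested. Of the 8 RAB genes with more than 1 kept probe, RAB2A was the one where a probe other than the brightest was called under siGATA2.

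**Figure D1:**
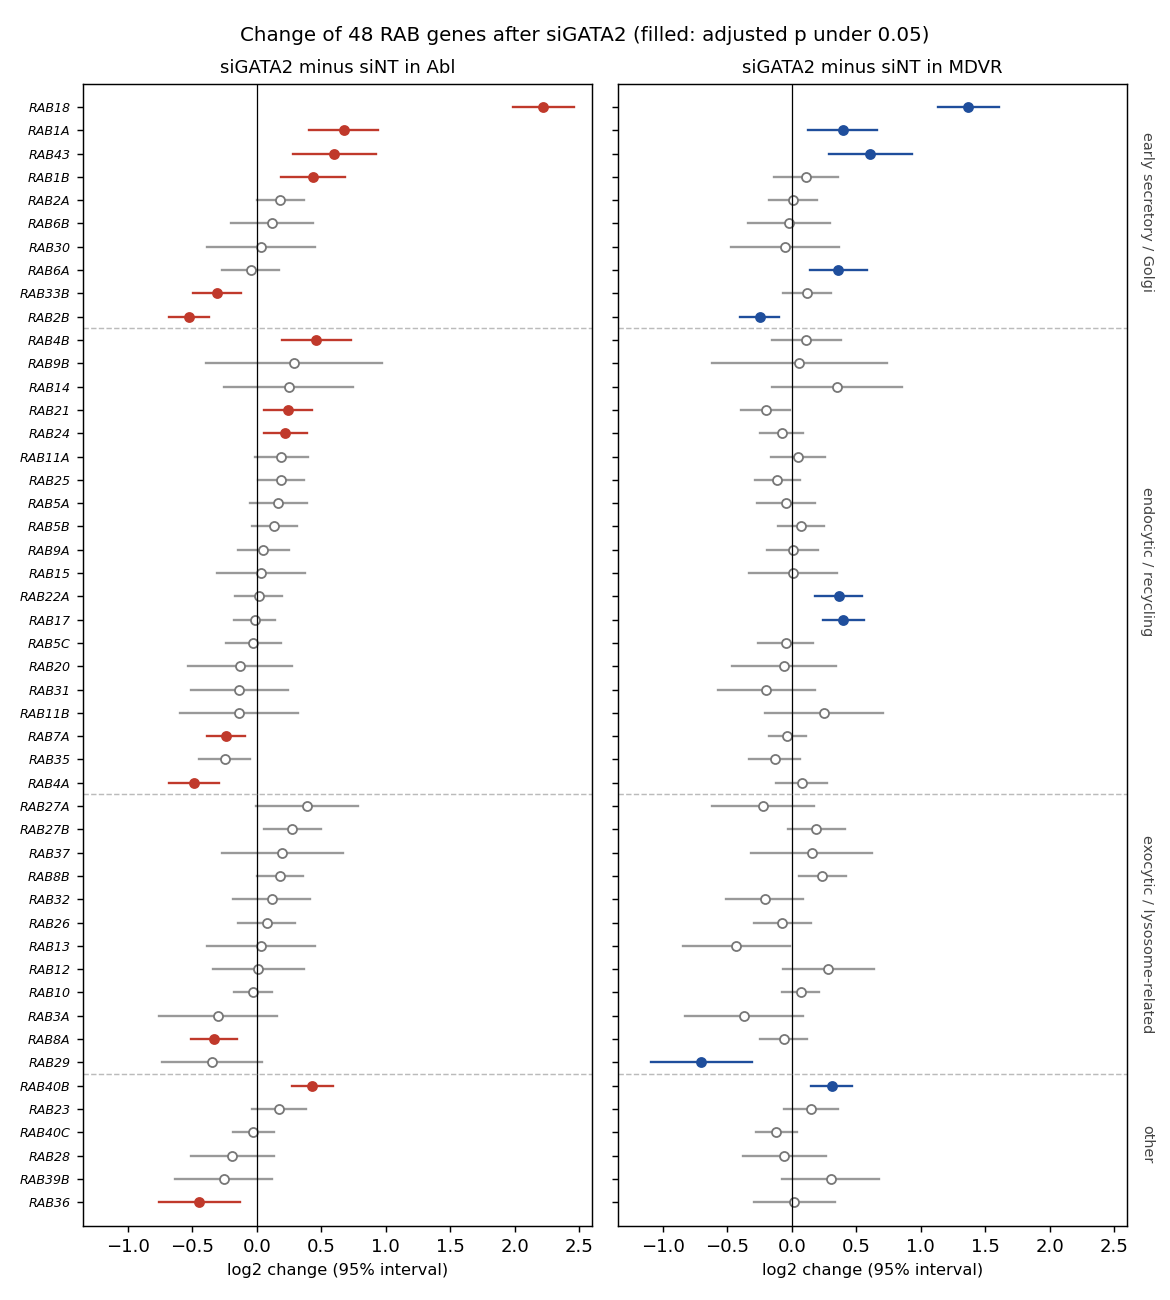
Log2 change (siGATA2 minus siNT) of each of the 48 RAB genes in Abl (left, red) and MDVR (right, blue), with 95% intervals from the limma fit, grouped by role. Filled points were called at an adjusted p under 0.05, open points were not, and RAB18 at 2.22 and 1.37 lies apart from the other RAB genes in both lines. RAB11B in Abl and RAB36 in MDVR were detected on no array of that line, so these points rest on background.

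The 5 RAB genes called in both lines are 10.4% of the family, beside 13.5% of all genes, and make up 35.7% of the RAB calls of Abl and 55.6% of those of MDVR. Over all genes these shares were 43.2% and 60.9%. No RAB gene was called in opposite directions, 9 were called in Abl alone, 4 in MDVR alone and 30 in neither line, and a call in 1 line alone does not show that the lines differ. The 30 genes not called lay between -0.30 and 0.39 in Abl and between -0.43 and 0.35 in MDVR. The median SE of a RAB change was 0.11, and the widest, 0.32, belonged to RAB9B.

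**Figure D2:**
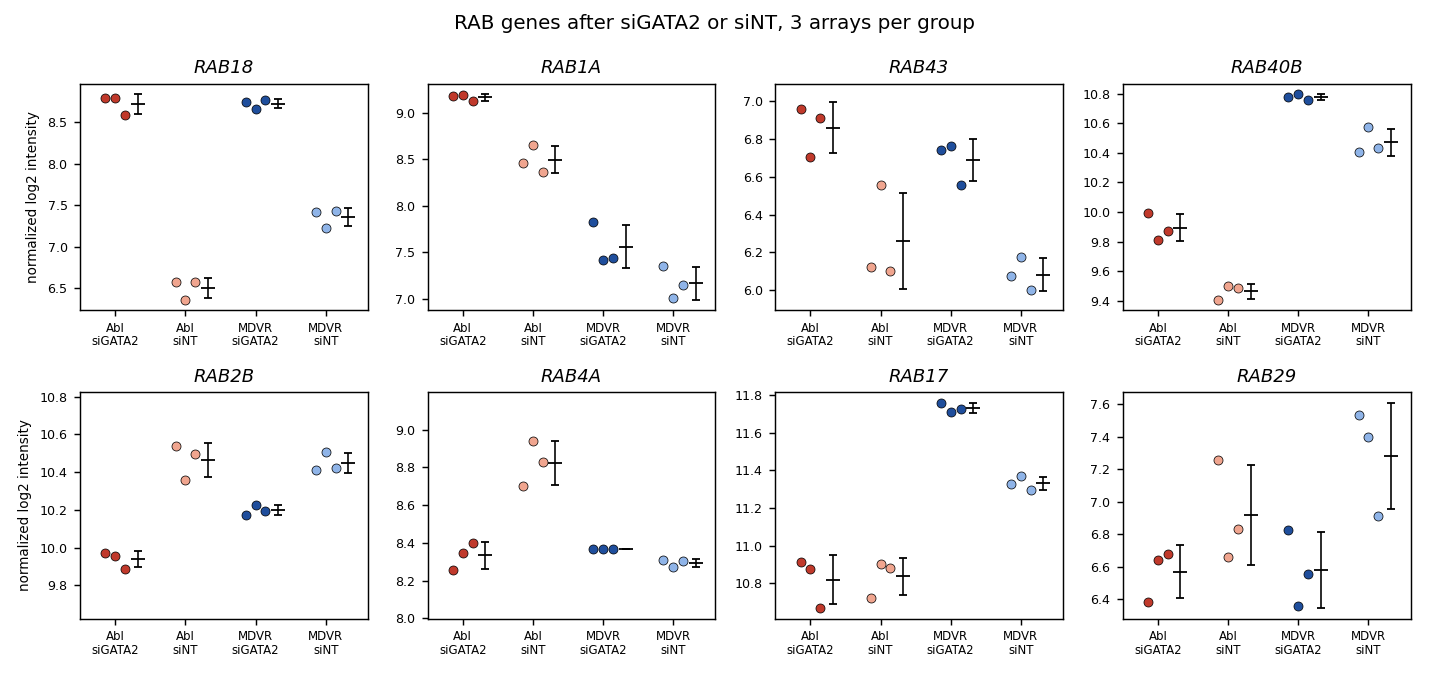
Normalized log2 intensity (y axis, scaled per gene) of 8 RAB genes on each array, with 3 arrays in each of the 4 groups and the mean ± SD beside the points. RAB18 stands between 8.59 and 8.80 under siGATA2 in both lines, while its siNT arrays lie lower, between 6.36 and 6.58 for Abl and between 7.23 and 7.43 for MDVR.

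The change itself was then compared between the lines, as the MDVR change minus the Abl change in the same fit. It differed for 4 of the 48 RAB genes, 2 with a more positive and 2 with a more negative change in MDVR, or 8.33%, beside 6.81% of all genes (3.85% more positive, 2.97% more negative). No RAB gene passed both the call and a 2-fold difference, which 1.94% of all genes did. For RAB18 the difference was -0.85 (SE 0.16, adjusted p = 0.0022), so the rise was smaller in MDVR. Under siNT, RAB18 was higher in MDVR than in Abl by 0.85, and under siGATA2 the lines read 8.75, 8.66 and 8.77 in MDVR and 8.79, 8.80 and 8.59 in Abl, a difference of 0.00045 (95% interval -0.23 to 0.24). The lines thus differed under siNT and overlapped under siGATA2. The difference was -0.45 without background correction and -0.32 on the authors' processed values, called in both.

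RAB4A behaved in the same way with the opposite sign. It read 8.37 on each MDVR siGATA2 array, against 8.31, 8.27 and 8.30 under siNT, a change of 0.07 (adjusted p = 0.635) beside the fall of 0.49 in Abl, and these changes differed by 0.56 (SE 0.13, adjusted p = 0.0129). RAB4A was lower in MDVR than in Abl under siNT (-0.53, adjusted p = 8.91e-05), and under siGATA2 the lines differed by 0.04 (95% interval -0.16 to 0.23).

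RAB17 changed by 0.40 in MDVR and by -0.02 in Abl, a difference of 0.42 (SE 0.11, adjusted p = 0.0242). Its Abl arrays read 10.91, 10.87 and 10.67 under siGATA2, against 10.72, 10.90 and 10.88 under siNT, which overlap. RAB21 changed by -0.20 in MDVR, where it read 9.52, 9.72 and 9.54 under siGATA2, against 9.85, 9.72 and 9.83 under siNT, and by 0.24 in Abl, a difference of -0.45 (SE 0.13, adjusted p = 0.0387). The RAB17 difference was lost on leaving out any 1 of 6 arrays, namely Abl siGATA2 replicate 4, Abl siNT replicate 2 or 3, MDVR siGATA2 replicate 1 and MDVR siNT replicate 2 or 4 (adjusted p = 0.051 to 0.0803). That of RAB21 was lost for any 1 of 8, namely Abl siGATA2 replicate 3 or 4, Abl siNT replicate 1 or 3, MDVR siGATA2 replicate 1 or 3 and MDVR siNT replicate 2 or 4 (adjusted p = 0.054 to 0.105). RAB33B came next, with a difference of 0.42 that was not called (SE 0.13, adjusted p = 0.0502).

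The regulators and effectors of RAB proteins were read from 4 lists, and a gene is named below for being among the called members with the smallest adjusted p. Of 6 measured chaperone and prenylation genes, 2 rose and 0 fell in Abl, and 1 rose and 1 fell in MDVR (median change 0.23 and 0.15). That is 33.3% called in each line, where 31.2% of all genes were called in Abl and 22.1% in MDVR. The Abl calls were RABGGTA, the alpha subunit of the enzyme that attaches the lipid anchor to RABs (0.54, SE 0.18, adjusted p = 0.0295), and RABAC1, a RAB acceptor of the Golgi (0.45, SE 0.13, adjusted p = 0.0113). GDI2, which extracts inactive RABs from membranes, read 12.01, 12.05 and 12.10 under siGATA2, against 12.41, 12.48 and 12.44 under siNT in MDVR, a fall of 0.39 (SE 0.07, adjusted p = 0.000436), and its -0.05 in Abl was not called. These changes differed by -0.34 (adjusted p = 0.0457). RABIF, a chaperone of nucleotide-free RABs, rose by 0.51 in MDVR (adjusted p = 0.0245).

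Of 29 measured exchange factors, 4 rose and 6 fell in Abl, and 4 rose and 4 fell in MDVR, with medians of -0.03 and 0.12. The called shares were 34.5% and 27.6%, beside the 31.2% and 22.1% of all genes. DENND1B, an exchange factor for RAB35, read 8.83, 8.42 and 8.49 under siGATA2, against 7.46, 7.41 and 7.45 under siNT in Abl, and 8.33, 8.30 and 8.08 under siGATA2, against 7.13, 7.24 and 7.46 under siNT in MDVR. The groups were far apart in both lines, with rises of 1.14 (SE 0.13, adjusted p = 1.33e-06) and 0.96 (SE 0.13, adjusted p = 2.02e-05). RAB35 itself was not called (-0.25, adjusted p = 0.0515 in Abl and -0.13 in MDVR).

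RIN2, an exchange factor for RAB5, was called in opposite directions. It read 8.70, 8.67 and 8.44 under siGATA2, against 9.19, 9.25 and 9.10 under siNT in Abl (-0.58, SE 0.11), and 8.10, 7.97 and 7.91 under siGATA2, against 7.57, 7.76 and 7.45 under siNT in MDVR (0.40, SE 0.11). The changes differed by 0.98 (adjusted p = 0.000472). RAB3IL1, an exchange factor of the RAB3A and RAB8 branch, fell in both lines (-0.53 and -0.35), as did AVL9 (-0.51 and -0.54), while DENND2C rose in both (0.52 and 0.52). DENND2A was called higher in Abl (1.13), where 1 of 3 siNT arrays detected it, so the size rests on signal near background. In MDVR, 1 of 3 siGATA2 arrays and no siNT array detected DENND2A, and no change is given.

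Of 29 measured GTPase-activating proteins, 5 rose and 4 fell in Abl, and 2 rose and 2 fell in MDVR, with medians of 0.04 and 0.07. The called shares were 31% and 13.8%, beside 31.2% and 22.1% of all genes. SGSM1 rose by 0.95 in Abl and 0.56 in MDVR, and TBC1D2, which acts on RAB7, rose by 0.90 in Abl (SE 0.18, adjusted p = 0.000799) without a call in MDVR (0.38, adjusted p = 0.148). SGSM2, a GAP for RAB32 and RAB38, rose by 0.34 in Abl. TBC1D16, a GAP for RAB4, fell in both lines (-0.41 and -0.50). TBC1D4, the RAB10 and RAB8A GAP known from insulin signalling, rose by 0.46 in MDVR (adjusted p = 0.00896).

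TBC1D20, a GAP for RAB1 and RAB18, read 7.36, 7.19 and 7.51 under siGATA2, against 7.92, 7.93 and 7.90 under siNT in Abl, a fall of 0.56 (SE 0.12, adjusted p = 0.00183). In MDVR it read 7.82, 7.57 and 7.70 under siGATA2, against 8.24, 8.22 and 7.89 under siNT, a fall of 0.42 (SE 0.12, adjusted p = 0.019), and the groups were separate in both lines. RAB3GAP1 and RAB3GAP2 together form the exchange factor of RAB18. RAB3GAP2 read 9.61, 9.87 and 9.87 under siGATA2, against 9.38, 9.40 and 9.42 under siNT in MDVR, a rise of 0.38 (SE 0.09, adjusted p = 0.00486), and its 0.18 in Abl was not called. RAB3GAP1, named after its values were seen, was at -0.34 in MDVR (SE 0.11, adjusted p = 0.0332) and at -0.11 in Abl, which was not called.

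Of 43 measured effectors, 8 rose and 8 fell in Abl, and 6 rose and 4 fell in MDVR, with medians of -0.05 and -0.01. The called shares were 37.2% and 23.3%, beside 31.2% and 22.1% of all genes. OPTN, an autophagy receptor that binds RAB8, read 7.04, 7.29 and 7.11 under siGATA2, against 6.27, 6.51 and 6.22 under siNT in Abl (0.82, SE 0.14), and 6.39, 6.40 and 6.42 under siGATA2, against 5.49, 5.33 and 5.27 under siNT in MDVR (1.04, SE 0.14). BICD2, which links RAB6 vesicles to dynein, fell by 0.85 in Abl and by 0.90 in MDVR. RBSN, a RAB4 and RAB5 effector, rose by 0.35 in Abl and by 0.54 in MDVR.

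KIF20A and SYTL2 changed by different amounts in the lines. KIF20A, a RAB6-binding kinesin that is best known for its part in cell division, read 5.46, 6.36 and 6.16 under siGATA2, against 7.75, 7.91 and 8.10 under siNT in Abl, a fall of 1.93 (SE 0.17), and fell by 0.52 in MDVR, where it read 7.91, 7.84 and 7.74 under siGATA2, against 8.44, 8.35 and 8.26 under siNT. The changes differed by 1.41 (adjusted p = 0.00126). SYTL2, an effector of RAB27 on secretory vesicles, changed by -1.497 in MDVR (SE 0.15) and by -0.56 in Abl (SE 0.15), both called, a difference of -0.94 (adjusted p = 0.00873), and was detected on 1 of 3 MDVR siGATA2 arrays. MLPH, which ties RAB27A to myosin Va, rose by 0.50 in Abl (adjusted p = 0.000711).

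**Figure D3:**
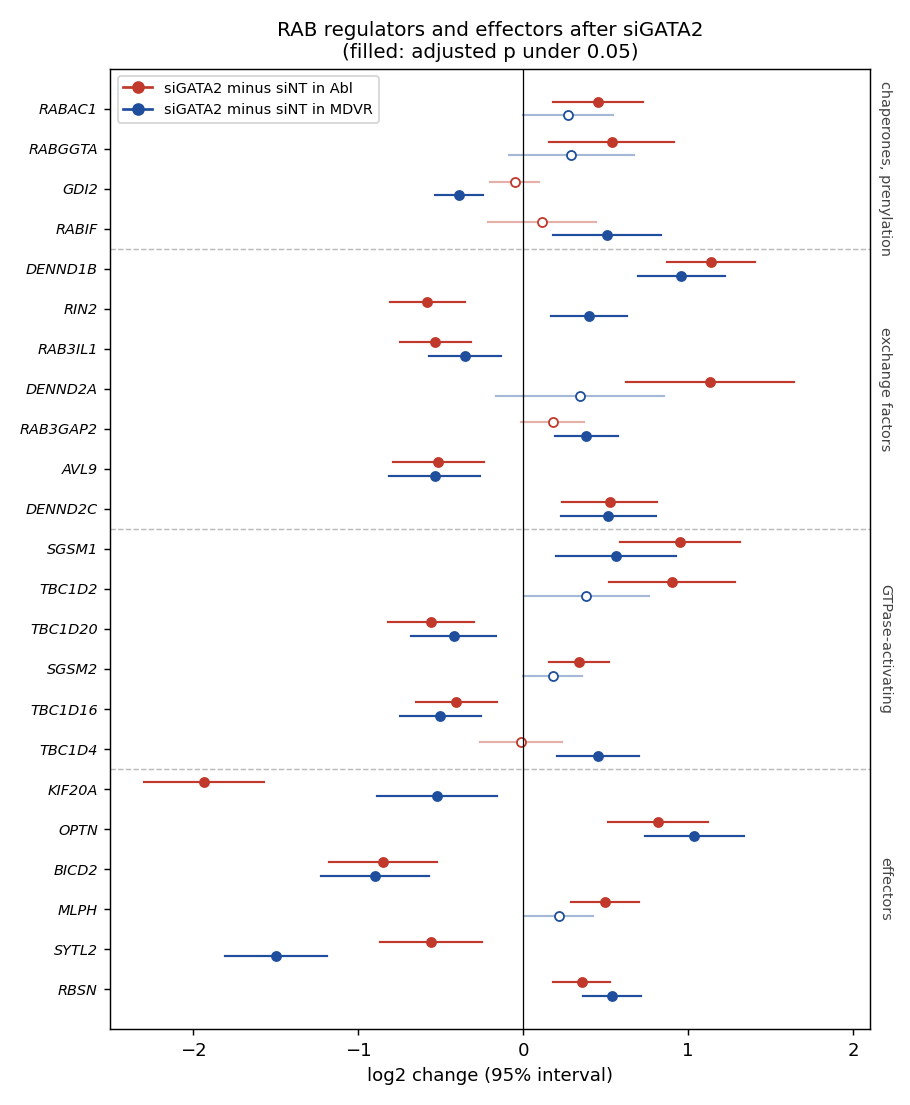
Log2 change (siGATA2 minus siNT) of the RAB regulators and effectors named by the rule, in Abl (red) and MDVR (blue), with 95% intervals. Filled points were called, and DENND1B and OPTN lie to the right and BICD2 and KIF20A to the left of 0 in both lines, while RIN2 lies on opposite sides. DENND2A and SYTL2 in MDVR rest partly on arrays that did not detect them.

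Under siNT, most RAB genes differed between the lines. Of the 48 genes 28 were called, 15 higher and 13 lower in MDVR, or 58.3% beside 51.1% of all genes (25.5% in each direction). A call with at least a 2-fold difference was found for 7 RAB genes (14.6%), beside 12.8% of all genes, and the arrays of the lines were separate for 27 RAB genes, where 56.7% of all genes were. The median difference was 0.0074 for the RAB genes and 0.0169 for all genes. With median scaling in place of quantile normalization the median of all genes moved by 0.11, and the split was then 18 higher and 9 lower.

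RAB36 and RAB27B were the RAB genes furthest below Abl in MDVR. RAB36 read 4.35, 4.46 and 4.38 in MDVR, against 7.79, 7.49 and 7.76 in Abl, and was detected on no MDVR array and on all Abl arrays under both siRNAs. RAB36 thus passed the filter through Abl arrays alone, so no p-value is given for it between the lines. Against the lowest detected signal on each MDVR array, RAB36 was at least 6.10-fold lower in MDVR, a bound that holds for this background correction. The measured difference was -3.28 here and -1.001 on the authors' processed values. RAB27B read 7.75, 7.54 and 7.77 in MDVR, against 9.91, 9.86 and 9.53 in Abl, a difference of -2.08 (SE 0.11, 4.23-fold, adjusted p = 4.18e-12). Its second, dim probe, detected on 5 arrays, differed by -0.53 without a call (adjusted p = 0.0638 over all probes).

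RAB32, RAB26 and RAB31 were the RAB genes most above Abl in MDVR. RAB32, which with RAB38 serves melanosomes and other lysosome-related organelles, read 9.20, 8.89 and 8.73 in MDVR, against 6.33, 6.56 and 6.21 in Abl. The difference was 2.58 (SE 0.14, 5.96-fold, adjusted p = 1.64e-11), and 1.29 on the authors' processed values. RAB26, a RAB of secretory granules, read 9.90, 9.86 and 9.90 in MDVR, against 8.07, 8.07 and 7.95 in Abl, a difference of 1.86 (SE 0.11, 3.63-fold, adjusted p = 2.25e-11). RAB31, which moves cargo between the trans-Golgi and endosomes, read 6.92, 6.68 and 6.44 in MDVR, against 5.21, 4.71 and 5.13 in Abl, where 1 of 3 arrays detected it, a difference of 1.67 (SE 0.18, adjusted p = 2.18e-07) that was 0.40 on the authors' processed values. For all 3 genes every MDVR array was above every Abl array.

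**Figure D4:**
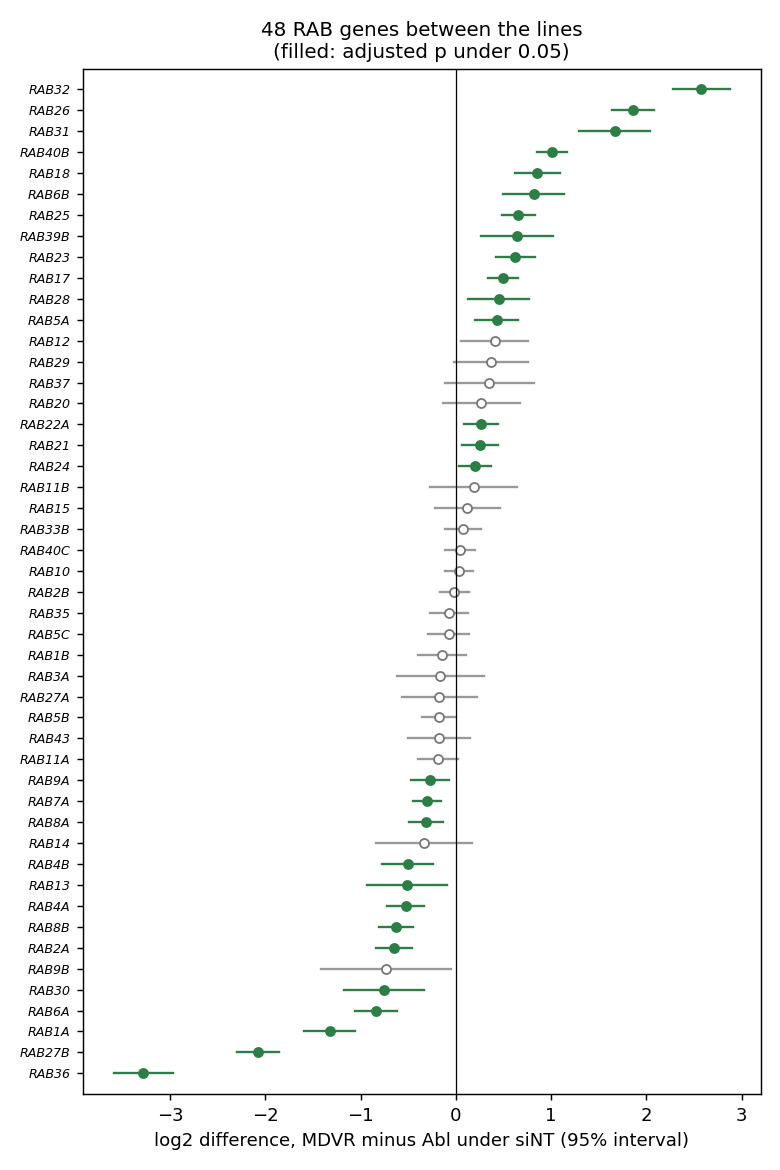
Log2 difference (MDVR minus Abl, siNT arrays) of the 48 RAB genes, with 95% intervals, ordered by size. Filled points were called, from RAB32 at 2.58 to RAB36 at -3.28. RAB36 was detected on no MDVR array, so the size of its difference rests on background there.

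The genes that responded to siGATA2 in both lines also differed between them, except RAB43 and RAB2B. RAB1A read 7.36, 7.01 and 7.14 in MDVR, against 8.46, 8.65 and 8.37 in Abl, a difference of -1.32 (SE 0.13, adjusted p = 4.76e-08), or -0.70 on the authors' processed values, and the RAB1A arrays under siGATA2 in MDVR were still below those under siNT in Abl. RAB40B read 10.41, 10.57 and 10.43 in MDVR, against 9.41, 9.50 and 9.49 in Abl, a difference of 1.01 (SE 0.08, adjusted p = 1.59e-09). RAB18 was higher in MDVR by 0.85 (SE 0.11, adjusted p = 3.08e-06), or 0.32 on the authors' processed values. RAB43 (-0.18, adjusted p = 0.357) and RAB2B (-0.02, adjusted p = 0.873) were not called.

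By role, the early secretory and Golgi class had 2 genes higher and 4 lower in MDVR, where 51.1% of all genes were called. RAB6A (-0.84), RAB30 (-0.76) and RAB2A (-0.65) were lower beside RAB1A, and the RAB6A relative RAB6B was higher (0.82). Differences between classes were not tested here either. The endocytic class had 7 higher and 4 lower. Among them RAB25, an epithelial member of the RAB11 family, was higher by 0.66 (SE 0.08, adjusted p = 2.17e-06), RAB17 by 0.49 (SE 0.08, adjusted p = 1.97e-05) and RAB5A by 0.43 (SE 0.11, adjusted p = 0.00228), and RAB4B was lower by 0.51 (SE 0.13, adjusted p = 0.00253). The exocytic class had 2 higher and 4 lower, with RAB8B (-0.63), RAB13 (-0.51) and RAB8A (-0.32) lower beside RAB27B. The remaining class had 4 higher and 1 lower, with RAB39B (0.64), RAB23, a brake on Hedgehog signalling (0.62), and RAB28 (0.45) higher beside RAB40B. On the authors' processed values RAB30 was at -0.18, RAB6B at 0.37, RAB4B at -0.20, RAB39B at 0.16 and RAB28 at 0.17, each with the same sign.

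Some of these calls rested on single arrays. RAB13, whose groups overlapped, lost its call without MDVR siNT replicate 3 or 4 or Abl siNT replicate 1 or 2 (adjusted p = 0.0665 to 0.224). RAB24 (0.20, groups overlapping) lost its call without any MDVR siNT array or Abl siNT replicate 1 or 2 (adjusted p = 0.0514 to 0.148). RAB21 (0.25) lost it without MDVR siNT replicate 2 or 4 or Abl siNT replicate 1 (adjusted p = 0.0666 to 0.123). RAB22A (0.26) lost it without MDVR siNT replicate 2 or 3 or Abl siNT replicate 3 (adjusted p = 0.0505 to 0.0529). RAB9A (-0.27) lost it without MDVR siNT replicate 2 or 3 or Abl siNT replicate 2 or 3 (adjusted p = 0.0581 to 0.103). RAB28 was lost without MDVR siNT replicate 4 or Abl siNT replicate 2 (adjusted p = 0.0691 or 0.139). RAB7A, RAB8A, RAB9A and RAB13 were also lost with median scaling.

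**Figure D5:**
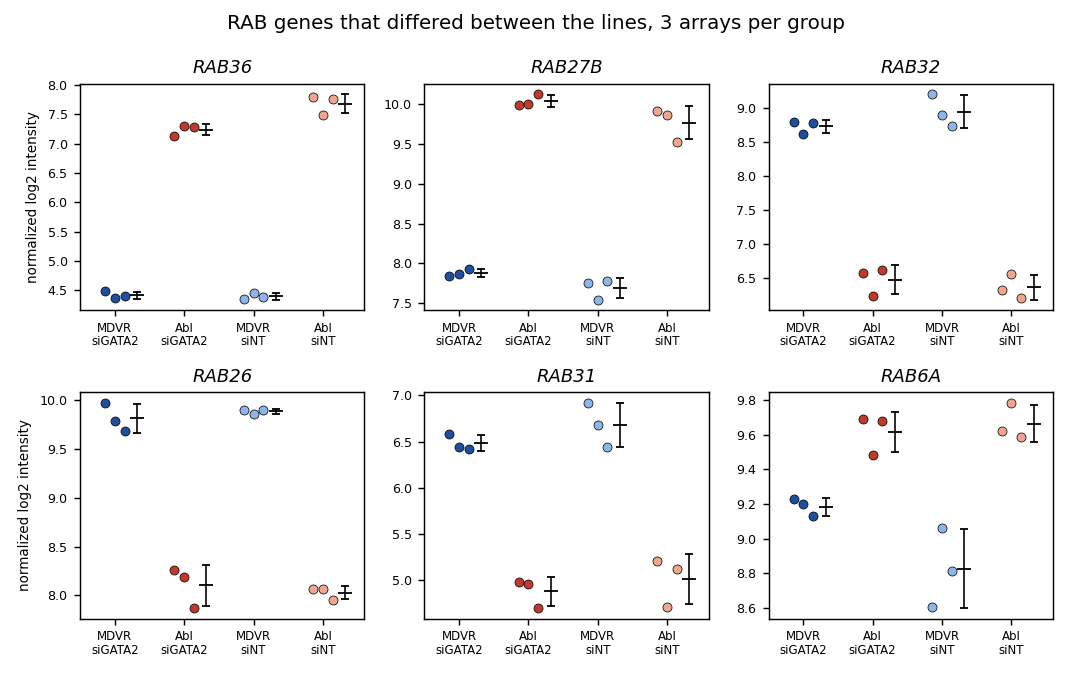
Normalized log2 intensity (y axis, scaled per gene) on each array of 6 RAB genes that differed between the lines, with MDVR in blue and Abl in red and the mean ± SD beside the points. The gap between the lines is seen under both siRNAs, with RAB36 at 4.35 to 4.49 on all MDVR arrays.

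Under siGATA2 the lines were set against each other in the same way, and 30 of the 48 RAB genes were called, 15 higher and 15 lower in MDVR. That is 62.5%, beside 55.5% of all genes (29.2% higher, 26.3% lower). RAB27B (-2.16) and RAB1A (-1.60) were again lower in MDVR, and RAB32 (2.25), RAB26 (1.71) and RAB40B (0.89) again higher. RAB36 was detected on no MDVR array, passed the filter through Abl alone and was at least 4.48-fold lower in MDVR. RAB31 was detected on no Abl siGATA2 array and was at least 2.62-fold higher in MDVR. RAB18 and RAB4A, which differed between the lines under siNT, were not called under siGATA2 (adjusted p = 0.998 and 0.772). In all 5 comparisons together, 9 RAB genes were never called, namely RAB3A, RAB5C, RAB10, RAB14, RAB15, RAB20, RAB35, RAB37 and RAB40C. A further 6, RAB5B, RAB9B, RAB11A, RAB11B, RAB12 and RAB27A, were called only between the lines under siGATA2. Of these, RAB11B passed the filter through MDVR arrays alone, and its bound was at least 1.17-fold higher in MDVR. RAB27A was detected on no MDVR siGATA2 array, with a bound of at least 1.42-fold lower in MDVR.

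Of the partner lists, 4 of 6 chaperone and prenylation genes (66.7%) and 16 of 29 exchange factors (55.2%) were called between the lines under siNT. So were 13 of 29 GTPase-activating proteins (44.8%) and 21 of 43 effectors (48.8%), beside 51.1% of all genes. Single partners are given as values only, chosen after their values were seen. HPS1 and HPS4, which together form the exchange factor of RAB32 and RAB38, were lower in MDVR by 1.33 (SE 0.15, adjusted p = 5.3e-07) and 1.02 (SE 0.18, adjusted p = 0.000118). The RAB27 effectors on the list went both ways in MDVR. SYTL2 (-2.54), SYTL4 (-1.46) and MYRIP (-0.72) were lower, SYTL1 (0.82) and MLPH (0.68) were higher, and RPH3AL (0.45, adjusted p = 0.0962) was not called. SYTL3 was detected on the 3 Abl siNT arrays alone and passed the filter through them, so no size is given. PLIN2, a coat protein of lipid droplets, was detected on no MDVR siNT array and was at least 3.66-fold lower in MDVR.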

How the data were processed

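RNA of 12 arrays in 4 groups of 3 was analysed. The deposited table gives, per probe and array, a scanner intensity and a detection p-value, without normalization per the file headers. A second deposited table holds the authors' processed log2 values for 23043 probes. The submitters' processing notes name lumi, with the version not given in the sources used here.

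Intensities were corrected with neqc of limma 3.58.1 (R 4.3.3), using the detection p-values for the negative controls and an offset of 16, then quantile normalized on the log2 scale. A probe had to be detected (p under 0.05) on 3 or more arrays, and a gene was read by its brightest kept probe. A further 6672 kept probes have no single symbol and were left out. The 4 group means were fitted with limma (lmFit, eBayes with trend) and p-values were adjusted by Benjamini-Hochberg over 11933 genes. Signal over background and 3 arrays per group limit the precision.

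The RAB genes given array by array are the called ones with the largest changes, up to 8 per comparison and up to 5 for the difference between lines, and from each list of partners up to 4 called members with the smallest adjusted p per siRNA comparison. Members and lists were chosen with earlier results of these data known. No pairing was used, since the labels do not say that a replicate number marks a shared culture or batch. Deviations of same-numbered arrays within a line correlated at -0.00723 to 0.121 (4 pairs, 1 over 0.1), too few pairs to settle this. Alternatives varied background correction, normalization, filter, probe choice, the variance trend, a replicate block and each array left out.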

Additional observations from a re-analysis of the deposited data

Results flagged for a closer look

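For 4 of the 48 RAB genes, or 8.33% beside 6.81% of all genes, the response to siGATA2 differed between the lines. The test was of the difference itself in the limma fit, given as the MDVR change minus the Abl change. This difference was -0.85 for RAB18 (adjusted p = 0.0022), 0.56 for RAB4A (adjusted p = 0.0129), 0.42 for RAB17 (adjusted p = 0.0242) and -0.45 for RAB21 (adjusted p = 0.0387). In 24 alternatives the call was lost in 2 for RAB4A, 9 for RAB17 and 12 for RAB21, and in none for RAB18.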

How the results depend on the processing

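In 24 alternatives (12 other settings and 12 single arrays left out) no called RAB result changed direction. Of the calls, 5 of 14 in Abl, 3 of 9 in MDVR, 1 of 4 for the difference and 15 of 28 between lines held in every alternative, RAB18 among them in each comparison. The 14 RAB genes called in Abl became 5 with the replicate block within each line and 7 with the replicate block across groups. That is 10.4% and 14.6% of the RAB genes beside 23.4% and 24.2% of all genes. Leaving out 1 array gave 10 to 15, or 20.8% to 31.2%, beside 25.7% to 32% of all genes. The 9 of MDVR became 4 with the block within lines (8.33% beside 15% of all genes) and 7 across groups (14.6% beside 16.1%). With 1 array left out, 6 to 10 were called, or 12.5% to 20.8%, beside 17.6% to 23.1% of all genes. The 4 differences became 2 with eBayes without trend (4.17% beside 5.26% of all genes) and 6 on the authors' values (12% beside 7.37%). With either replicate block 1 was left, or 2.08%, beside 3.02% of all genes within lines and 2.29% across groups. With 1 array left out 2 to 5 were called, or 4.17% to 10.4%, beside 4.37% to 6.26% of all genes. The lowest count, 2, came without Abl siGATA2 replicate 4, MDVR siGATA2 replicate 1, MDVR siNT replicate 2 or MDVR siNT replicate 4. In these 4 fits 4.37% to 5.43% of all genes were called. The 28 between lines became 18 with the block within lines (37.5% beside 32.8% of all genes). They became 24 to 29 with 1 array left out (50% to 60.4% beside 46.6% to 51.6% of all genes). The labels do not say whether the numbers pair the arrays, and why fewer genes were called with these blocks was not tested. Sizes of dim probes depend on background correction. No slide or scan was named in the sources used here, so that block was not run.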
